A study of Homo sapiens with 6 samples.

Results

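Immediate early genes are transcribed within minutes of a growth factor or stress signal, without new protein synthesis, and many of them encode transcription factors. In epithelial cells the main route to them is the MAPK cascade, in which receptors such as EGFR act through RAS, RAF and MEK on the kinase ERK. ERK phosphorylates ETS-family factors bound beside the serum response factor SRF, and the induced genes include the FOS and JUN proteins, which pair to form the AP-1 factor, and the EGR zinc finger factors. A second set of induced genes turns the signal off again: DUSP phosphatases remove the phosphates from MAP kinases, SPRY and SPRED proteins restrain RAS and RAF, and ZFP36 proteins speed the decay of short-lived messages.

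A set of 36 such genes was examined in MCF10A cells, an immortalised, non-tumorigenic line of human breast epithelium. The genes were listed by symbol from knowledge of the pathway, with earlier results of these data known. All 36 were found among the 27914 genes of the deposited table. RNA was sequenced from 3 libraries of SCRin control cells, labelled wild-type, and from 3 libraries of cells with the genotype ⍺-/-;βin, called PI5P4K-depleted, or depleted, here because the series title names PI5P4K and both targeted messages were low in them. All 6 received doxycycline for 3 days. The labels expand neither the Greek letters nor "SCR" and "in", and do not say whether the cells came from 1 clone or from several, or whether the replicates were separate cultures. The p-values therefore rest on the spread among these samples, and this spread may be technical. Neither the growth factors in the medium, nor the time between feeding and harvest, are given in the sources used here.

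Values are in the deposited unit TPM, a share of all transcripts, which are scaled for transcript length and can be compared between genes. They keep no record of read depth, which is unknown. Each TPM column summed to 1000000. PIP4K2A, encoding the α enzyme, measured 19.8 to 21.7 TPM in the controls, and 4.09 to 4.35 TPM in depleted cells, and PIP4K2B, encoding the β enzyme, 20.8 to 23.1 and 8.20 to 11.6 TPM (limma adjusted p = 0.000847 and 0.00985, exact permutation p = 0.1 for each, the smallest that 3 against 3 can give). Of 6 basal epithelial markers all were tested and 0 were called, and they summed to between 2086 and 3663 TPM in the controls, and between 2462 and 3449 TPM in depleted cells. These sums hide differences between the markers: the log2 change was positive for 5 of 6 (median 0.52), and 3 had an unadjusted p under 0.05. KRT5 (0.54), TP63 (0.72, limma adjusted p = 0.0664) and ITGA6 (0.51) were higher without overlap, and the abundant LAMB3 was at -0.36. Their part in the results below was not tested. Fibroblast markers summed to between 1.96 and 6.32 TPM, endothelial markers to at most 0.213 TPM, and leukocyte markers to between 38.3 and 44.8 TPM in the controls, and between 35.6 and 38.7 TPM in depleted cells. In that last list PTPRC was at 0 in every library, and nearly all of the sum was CD68, a lysosomal protein gene. Of 7 luminal epithelial markers 4 were tested and 0 were called by limma, 1 had an unadjusted p under 0.05, and they summed to between 632 and 728 TPM in the controls, and between 567 and 680 TPM in depleted cells (median log2 change 0.01). In bulk RNA, a change in all cells and a change in some of them cannot be told apart.

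SRF binds a short AT-rich element called the CArG box, and the EGR1 promoter is shown because it was the 1 member promoter in which the element was found. RefSeq promoter sequences of GRCh38.p14, running from 250 bases before to 50 after the start of the gene, were matched to 26 of the 36 members. No promoter was searched for the other members, and an element outside this window would not be found. The EGR1 promoter lies at chr5:138465229-138465528 on the plus strand, and its 2 CArG boxes are in capitals, with first bases at -105 and -83 from the start.

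EGR1: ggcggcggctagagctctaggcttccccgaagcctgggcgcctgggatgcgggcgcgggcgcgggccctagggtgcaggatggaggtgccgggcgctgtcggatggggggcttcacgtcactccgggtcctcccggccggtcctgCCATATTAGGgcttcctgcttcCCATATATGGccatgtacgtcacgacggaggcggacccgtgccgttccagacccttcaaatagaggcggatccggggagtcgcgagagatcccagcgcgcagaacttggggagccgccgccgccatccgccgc

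The CArG box occurred in 351 of 27305 promoters of the same length, or 1.29%, and in 0.986% of the 9326 that belong to tested genes. The AP-1 element TGANTCA was found in the FOSL2 promoter alone among the 26, or 3.85%, in 7.76% of all promoters and in 4.49% of those of tested genes. The cyclic AMP response element TGACGTCA was found in those of DUSP1 and JUND, in 1.98% of all and in 3.36% of those of tested genes. The ETS element CCGGAAGT was found in 0 of the 26, in 4.44% of all and in 9.56% of those of tested genes. Both strands were searched for each element, and the letters of these elements do not overlap one another. A match is a description of the letters in that window and does not show that a factor binds there.

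None of the 36 genes passed the test across all genes, and the set as a whole lay close to control levels. Of the 36 genes, 33 reached a mean of 1 TPM and were tested, and FOSB, EGR2 and EGR3 lay below that filter. At a Benjamini-Hochberg adjusted p under 0.05 by limma on log2(TPM + 1), 0 of the 33 were called, against 2.19% of all 12096 tested genes. At an unadjusted p under 0.05 there were 5 members, FOS, ZFP36, MCL1, DUSP5 and DUSP6, or 15.2%, against 11.9% of all tested genes. The median log2 change was 0.06 over the members and -0.01 over all tested genes, and 18 members lay above 0 and 15 below. The groups did not overlap for 6 members (18.2%), against 17.1% of all tested genes. Of these, 5 were higher in depleted cells (15.2%, against 5.64% of all tested genes) and 1, DUSP4, was lower (3.03%, against 11.4%).

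**Figure D1:**
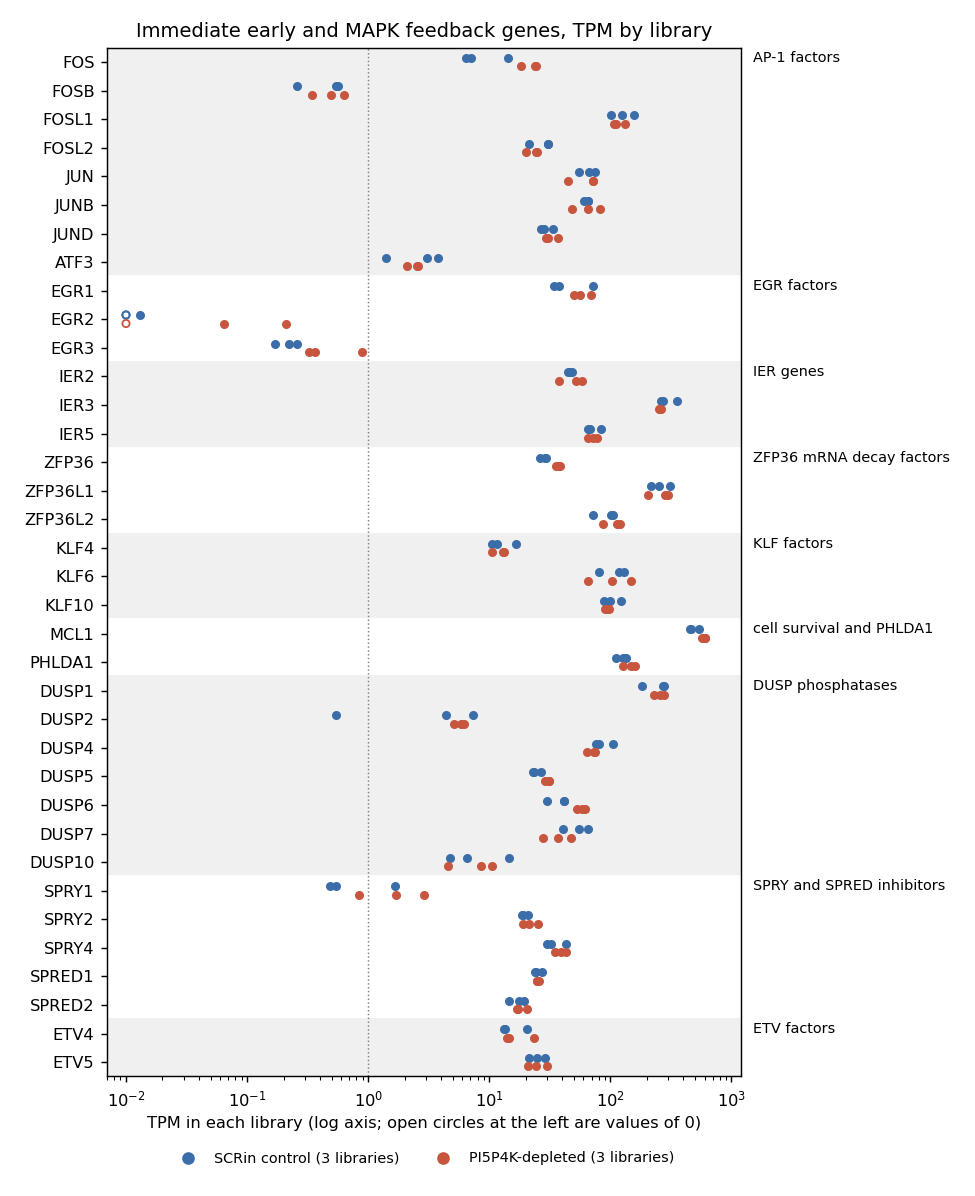
TPM of the 36 genes in each library on a log axis, with 1 row per gene, controls in blue and depleted libraries in red. The groups are apart for FOS, ZFP36, MCL1, DUSP4, DUSP5, DUSP6 and the low gene EGR3. The dotted line marks 1 TPM, and open circles are EGR2 values listed at 0.

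FOS, the founding member of the AP-1 family and a gene that responds quickly to ERK, had the largest estimated change of the tested members. Replicates 1 to 3 of the controls held 7.11, 14.3 and 6.37 TPM of FOS, and those of the depleted cells 24.0, 18.2 and 24.4 TPM. Every depleted library was above every control, and control replicate 2 stood above the other controls. The means were 9.27 ± 4.39 and 22.2 ± 3.47 TPM (SD, n = 3), a ratio of 2.40. The log2 change was 1.25 (SE 0.28, 95% interval 0.57 to 1.92), and the limma adjusted p of 0.0970 missed the threshold. Without control replicate 2 the log2 change was 1.57 and FOS passed (limma adjusted p = 0.0190, over all alternatives 0.0190 to 0.312).

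The other FOS-family genes overlapped between the groups. FOSL1, also called FRA1, the AP-1 subunit that was most abundant here, measured 101, 156 and 125 TPM in the controls, and 107, 132 and 112 TPM in depleted cells. The depleted values lay inside the control range, and the log2 change was -0.10 (95% interval -0.50 to 0.29). FOSL2, or FRA2, measured 21.3, 30.4 and 30.8 TPM in the controls, and 20.0, 24.1 and 24.8 TPM in depleted cells, with a log2 change of -0.24 (95% interval -0.63 to 0.16). FOSB measured 0.256 to 0.560 TPM in the controls, and 0.341 to 0.632 TPM in depleted cells, below the filter, and the groups overlapped.

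FOS made up a larger part of the FOS-family message in depleted libraries while the family total was close to control. The 4 FOS-family genes summed to 165 ± 35.4 TPM in the controls, and 163 ± 11.6 TPM in depleted cells. FOS accounted for 5.47%, 7.13% and 3.91% of this sum in the controls and for 15.8%, 10.4% and 15.1% in depleted libraries, with no overlap. FOSL1 remained the main member at 76.9% to 77.7% in controls and 69.4% to 75.5% in depleted libraries. These shares are given as a description, since they were formed after the FOS values had been seen.

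**Figure D2:**
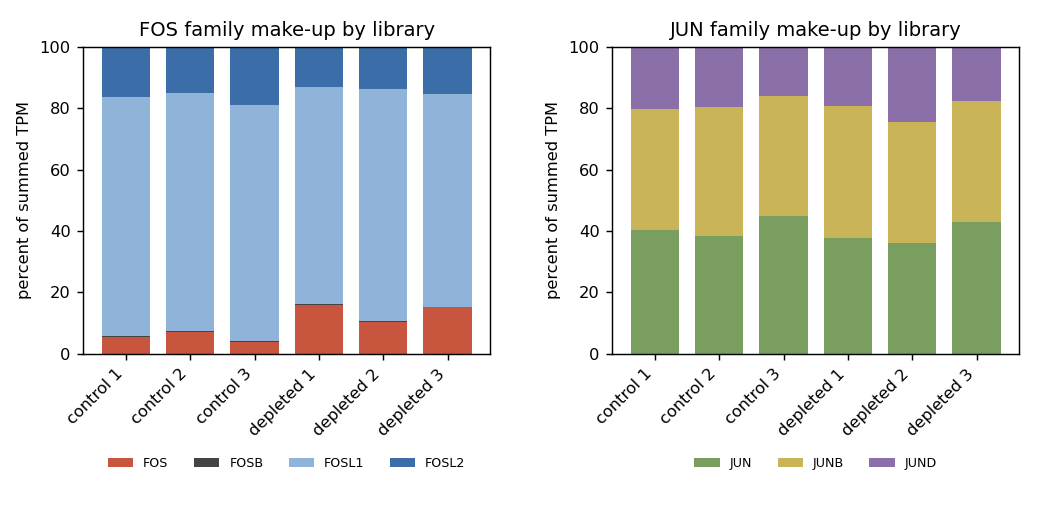
Share of each gene in the summed TPM of the FOS family (left) and the JUN family (right), 1 bar per library. FOS, in red at the foot of the left bars, takes 3.91% to 7.13% in controls and 10.4% to 15.8% in depleted libraries, and the JUN shares of the groups overlap.

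The JUN genes, whose products pair with FOS proteins, lay close to control levels. JUN measured 67.0, 55.5 and 75.3 TPM in the controls, and 71.7, 44.8 and 71.2 TPM in the depleted cells (log2 change -0.09, 95% interval -0.58 to 0.39). JUNB measured 61.1 to 65.5 TPM and 48.5 to 82.0 TPM, and the depleted libraries spread to both sides of the controls. Its log2 change was 0.00 (95% interval -0.43 to 0.43), with a sign that changed with the scaling. JUND measured 27.0 to 33.8 TPM in the controls, and 29.4 to 36.8 TPM in the depleted cells (log2 change 0.11, 95% interval -0.19 to 0.42). The JUN family summed to 160 ± 12.7 and 160.2 ± 33.8 TPM, about the same total as the FOS family. ATF3, a stress-induced factor that pairs with JUN proteins, was low, at 1.40 to 3.76 and 2.08 to 2.58 TPM, and the groups overlapped.

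Among the EGR factors only EGR1 was well expressed. EGR1, whose promoter with 2 CArG boxes is printed above, measured 34.1, 72.4 and 37.4 TPM in the controls, and 69.9, 55.8 and 50.4 TPM in depleted cells. Control replicate 2 held the highest value of all 6 libraries, so the groups overlapped. The log2 change was 0.35 (95% interval -0.32 to 1.02, limma adjusted p = 0.714). Without control replicate 2, which was also the highest control for FOS, it was 0.69 (limma adjusted p = 0.142). It was 0.15 without control replicate 1, 0.22 without control replicate 3 and 0.22 without depleted replicate 1, so the estimate depended on single libraries of both groups. EGR3 measured 0.260, 0.168 and 0.220 TPM in the controls, and 0.893, 0.324 and 0.366 TPM in depleted cells, without overlap but below the filter. When low genes were kept in the test, its log2 change on this scale was 0.31 (limma adjusted p = 0.573). EGR2 was listed at 0 in control replicates 2 and 3 and in depleted replicate 1, and at 0.0130, 0.208 and 0.0645 TPM in the remaining libraries.

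The 3 IER genes, whose name stands for immediate early response, differed little. IER3, which modulates apoptosis and ERK signalling, was the second most abundant member. It measured 273, 263 and 358 TPM in the controls, and 263, 251 and 255 TPM in depleted cells. The depleted libraries lay at the bottom of the control range and overlapped it narrowly (log2 change -0.20, 95% interval -0.50 to 0.10, and -0.06 without control replicate 3). IER2 ranged from 44.5 to 48.6 TPM in the controls, and from 37.8 to 58.5 TPM in depleted cells, and IER5 from 65.8 to 84.3 TPM and from 65.0 to 77.6 TPM.

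ZFP36, encoding tristetraprolin, which binds AU-rich elements and promotes the decay of cytokine and immediate early messages, was higher in every depleted library. It measured 26.4, 29.5 and 29.0 TPM in the controls, and 37.9, 35.4 and 38.3 TPM in depleted cells, a ratio of 1.32. The difference was larger than the spread of either group, with means of 28.3 ± 1.68 and 37.2 ± 1.56 TPM. The log2 change was 0.39 (SE 0.09, 95% interval 0.17 to 0.60), and it missed the threshold over all genes (limma adjusted p = 0.106). Its relatives were more abundant and overlapped between the groups. ZFP36L1 measured 252, 216 and 311 TPM in the controls, and 282, 204 and 300 TPM in the depleted cells (log2 change 0.01). ZFP36L2 measured 106, 72.6 and 101 TPM and 121, 87.0 and 113 TPM (log2 change 0.20, 95% interval -0.23 to 0.64).

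The Krüppel-like factors, zinc finger regulators that respond to growth factors and TGF-beta, stayed within the control range or around it. KLF6 measured 131, 80.7 and 117 TPM in the controls, and 147, 64.9 and 104 TPM in depleted cells. In both groups the library numbered 2 was lowest, and the spread within groups exceeded the difference between them (log2 change -0.11, 95% interval -0.83 to 0.62). KLF10, an early TGF-beta response gene, ranged from 88.1 to 123 TPM and from 90.5 to 97.5 TPM. KLF4 ranged from 10.5 to 16.5 TPM and from 10.6 to 13.2 TPM.

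MCL1, an anti-apoptotic BCL2 relative with a short-lived message and protein, was the most abundant gene of the set. It measured 462, 539 and 454 TPM in the controls, and 605, 609 and 569 TPM in depleted cells, without overlap. The means were 485 ± 46.9 and 594 ± 22.2 TPM, a ratio of 1.23, and the log2 change was 0.30 (SE 0.09, 95% interval 0.07 to 0.52, limma adjusted p = 0.261). PHLDA1, a pleckstrin homology-like protein often read as an ERK output, measured 127, 135 and 111 TPM in the controls, and 158, 149 and 127 TPM in depleted cells. A single depleted library, replicate 3, lay within the control range (log2 change 0.22, 95% interval -0.06 to 0.50).

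**Figure D3:**
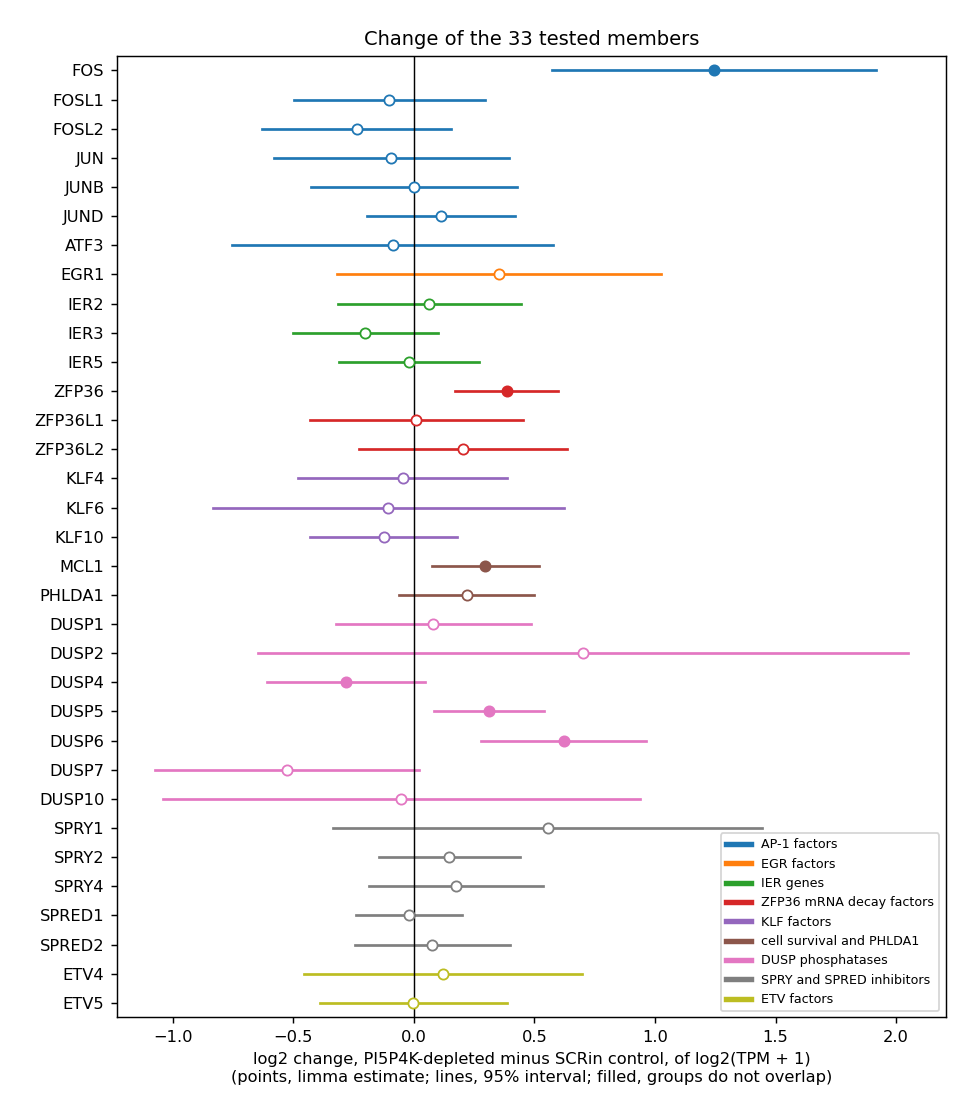
Log2 change of the 33 tested genes with 95% intervals, coloured by role, where filled points have groups that do not overlap. The intervals of FOS, ZFP36, MCL1, DUSP5 and DUSP6 lie above 0, and 0 genes passed the adjusted threshold.

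The DUSP phosphatases lay on both sides of the controls. DUSP6, a cytoplasmic phosphatase selective for ERK and a usual readout of ERK activity, measured 41.7, 41.0 and 30.0 TPM in the controls, and 62.0, 58.4 and 53.0 TPM in depleted cells. All depleted libraries were above all controls. The means were 37.6 ± 6.59 and 57.8 ± 4.55 TPM, a ratio of 1.54, and the log2 change was 0.62 (SE 0.15, 95% interval 0.28 to 0.96, limma adjusted p = 0.105). DUSP5, a nuclear phosphatase that also acts on ERK, measured 22.9, 23.6 and 26.7 TPM in the controls, and 31.0, 31.2 and 29.1 TPM in depleted cells. It did not overlap either (ratio 1.25, log2 change 0.31, 95% interval 0.08 to 0.54, limma adjusted p = 0.250).

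DUSP4, a nuclear phosphatase of ERK and JNK, lay on the other side. It measured 80.2, 76.1 and 105 TPM in the controls, and 73.7, 64.7 and 74.3 TPM in depleted cells. The groups were separated by a narrow gap, and the difference was comparable to the spread of the controls (means 87.1 ± 15.7 and 70.9 ± 5.35 TPM, log2 change -0.28, 95% interval -0.61 to 0.05, limma adjusted p = 0.508). Without control replicate 3, the highest library, the log2 change was -0.14.

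DUSP7, another cytoplasmic ERK phosphatase, was the 1 member inside a stretch of chromosome 3 in which most genes were lower in depleted cells. It measured 66.0, 40.7 and 55.6 TPM in the controls, and 47.0, 28.0 and 36.9 TPM in depleted cells. The groups overlapped at control replicate 2 and depleted replicate 1, and the log2 change was -0.53 (SE 0.23, 95% interval -1.08 to 0.02, limma adjusted p = 0.445). Without depleted replicate 2 it was -0.34. Its position on chromosome 3 lies between SEMA3F and RPP14 in RefSeq gene order, a stretch in which 63 of 65 tested genes had a change below 0, with a median of -0.80 and quartiles of -0.95 and -0.71. Elsewhere on chromosome 3 the median was -0.02 (602 genes). The ends of the stretch were set with earlier results of these data known, so this contrast is partly fixed by that choice. DUSP7 was among the less lowered genes of the stretch, with 6 of the 65 lowered less than it or not at all. The adjacent tested genes RPL29, a ribosomal protein gene, and POC1A, a centriole gene, had log2 changes of -0.72 and -0.83. The values for DUSP7 and for its location cannot be told apart here.

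**Figure D4:**
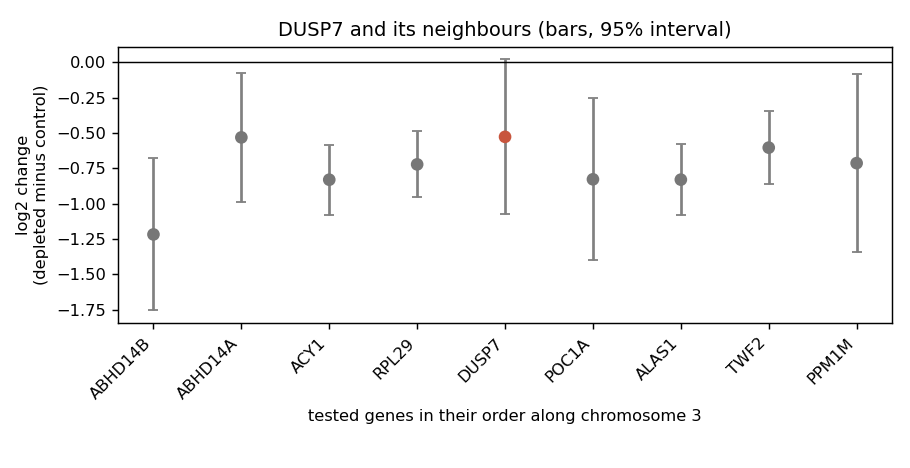
Log2 change with 95% interval of DUSP7 (red) and of the 4 tested genes on either side of it in RefSeq order along chromosome 3. All 9 estimates lie below 0, between -1.22 and -0.53, and those of DUSP7 and ABHD14A, both -0.53 after rounding, are the smallest in size.

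The remaining DUSP genes overlapped between the groups. DUSP1, a nuclear phosphatase of p38, JNK and ERK that is itself an immediate early gene, was the most abundant of the 7 and made up 44.8% to 58.0% of their summed TPM in the controls, and 50.1% to 57.1% in depleted cells. It measured 183, 270 and 277 TPM in the controls, and 230, 256 and 276 TPM in the depleted cells (log2 change 0.08, 95% interval -0.32 to 0.48). DUSP2 measured 0.541, 7.36 and 4.39 TPM in the controls, and 5.84, 6.15 and 5.09 TPM in depleted cells. Its log2 change of 0.70 rested on the low control replicate 1 and was -0.01 without it. DUSP10, which prefers p38 and JNK, ranged from 4.73 to 14.7 TPM and from 4.56 to 10.5 TPM. With DUSP5 and DUSP6 on one side and DUSP4 and DUSP7 on the other, the 7 genes summed to 459 ± 47.7 and 464 ± 17.1 TPM.

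The SPRY and SPRED inhibitors of RAS signalling gave no call. SPRY4 was the most abundant of the 5, at 29.7, 42.7 and 32.3 TPM in the controls, and 35.1, 42.9 and 39.5 TPM in the depleted cells (log2 change 0.17, 95% interval -0.19 to 0.53). SPRY2 ranged from 18.8 to 21.0 TPM and from 19.1 to 25.2 TPM (log2 change 0.15, 95% interval -0.15 to 0.44). SPRY1 was near the filter, at 0.483, 1.68 and 0.546 TPM in the controls, and 0.846, 2.92 and 1.69 TPM in depleted cells, with overlap (log2 change 0.55, 95% interval -0.33 to 1.44, and 0.28 without depleted replicate 2). SPRED1 was among the steadiest genes of the set, at 24.1 to 27.5 TPM and 24.6 to 25.7 TPM (log2 change -0.02, 95% interval -0.24 to 0.20). SPRED2 ranged from 14.7 to 19.5 TPM and from 17.0 to 20.4 TPM.

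ETV4 and ETV5, ETS factors of the PEA3 group that are induced by receptor tyrosine kinase signalling, followed the replicate number rather than the group. ETV4 measured 13.5, 20.6 and 13.2 TPM in the controls, and 14.6, 23.5 and 14.02 TPM in depleted cells. ETV5 measured 21.2, 28.7 and 25.0 TPM in the controls, and 20.9, 29.8 and 24.3 TPM in depleted cells. In both groups the library numbered 2 was highest, and the log2 changes were 0.12 (95% interval -0.46 to 0.70) and 0.00 (95% interval -0.39 to 0.39).

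Set against each other, the AP-1 and EGR factors and the DUSP, SPRY and SPRED feedback genes had mean levels that differed from control by a similar small amount. Levels were taken as the mean of log2(TPM + 1) over the tested genes of a class, relative to the control mean. For the 8 tested factors the controls, in the order of their replicate numbers, stood at -0.08, 0.20 and -0.12, and the depleted libraries at 0.26, 0.01 and 0.17. For the 12 feedback genes they were -0.09, 0.13 and -0.04 in controls and 0.18, 0.12 and 0.14 in depleted libraries. The mean difference between the groups was 0.15 for each class, and for each class the libraries overlapped through control replicate 2. Feedback level minus factor level was -0.01, -0.07 and 0.08 in controls and -0.09, 0.11 and -0.03 in depleted libraries. Levels were set relative to the control mean, so the control values of this difference had to balance out. The depleted values were of both signs. The equal means of the classes do not show that the classes behaved alike, since each mean moved when a single gene was left out.

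The factor mean rested on FOS, while the feedback mean was larger without DUSP7. Without FOS, left out after its values were seen, the factor difference was -0.01 (controls -0.06 to 0.14, depleted -0.13 to 0.11). Without DUSP7, left out for its position with earlier results of these data known, the feedback difference was 0.21. Its removal had to raise the mean, since DUSP7 had the lowest log2 change of the 12 feedback genes (-0.53). The levels were then -0.13, 0.18 and -0.05 in controls and 0.21, 0.22 and 0.20 in depleted libraries, without overlap. Over the feedback genes the median log2 change was 0.11, with 8 of 12 above 0, and over the factors it was -0.04, with 3 of 8 above 0. Heat shock genes, which rise with handling stress, had levels of -0.16 to 0.13 in controls and -0.09 to 0.12 in depleted libraries, and 0 of 11 were called. Their part in the result was not tested.

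**Figure D5:**
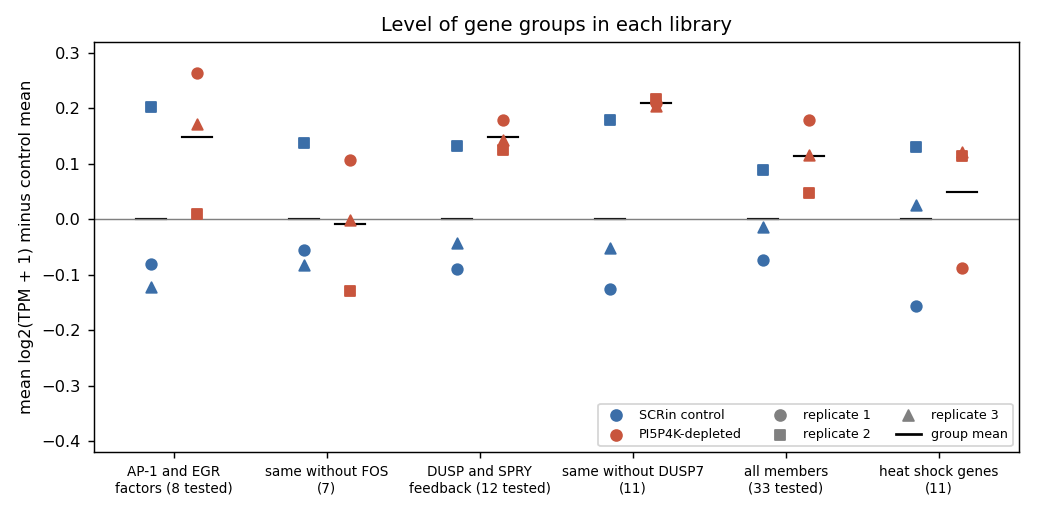
Mean log2(TPM + 1) of gene classes in each library relative to the control mean, with marker shape for the replicate number and a black bar for the group mean. Control replicate 2 lies among or near the depleted libraries for factors and feedback genes, and the factor difference of 0.15 becomes -0.01 without FOS.

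These genes varied between replicate libraries somewhat more than other genes did. The median SD within groups, on the log2(TPM + 1) scale, was 0.23 over the 33 members and 0.18 over all tested genes. It was largest for DUSP2 (0.90), DUSP10 (0.65), SPRY1 (0.51), KLF6 (0.49), EGR1 (0.44) and FOS (0.44), and smallest for ZFP36 (0.07) and SPRED1 (0.07). Libraries numbered 2 held the lowest value of both groups for 9 members, among them JUN, JUNB, IER2, IER3, ZFP36L1 and KLF6. They held the highest value of both groups for 8, among them FOSL1, MCL1, SPRY4, ETV4 and ETV5. These 17 members were 51.5% of the 33, against 46.3% of all tested genes. For libraries numbered 1 the share was 45.5%, or 15 members, against 44.8%, and for those numbered 3 it was 36.4%, or 12 members, against 25.0%.

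Upstream of these genes, the components of the cascade gave no call, apart from EGFR. EGFR, a receptor upstream of RAS and ERK, measured 192 to 214 TPM in the controls, and 94.4 to 98.2 TPM in the depleted cells (log2 change -1.09, limma adjusted p = 0.00308). Unlike for DUSP7, the genes beside EGFR on its chromosome were not examined, and the part of its location was not tested. Of 21 genes from GRB2 and RAS to ERK and RSK, 20 were tested and 0 rose or fell (median log2 change 0.03). The most abundant, SHC1, an adaptor of activated receptors, measured 326 ± 39.7 and 392 ± 41.9 TPM (limma adjusted p = 0.484). Of 13 genes of the JNK and p38 cascades, 12 were tested and 0 were called (median 0.01), and MAPKAPK2, a kinase downstream of p38, measured 110 ± 4.15 and 107 ± 4.78 TPM.

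The listed factors that act at immediate early promoters also gave no call. Of 8 tested genes of the SRF, TCF and CREB list, ELK3, an ETS factor that binds beside SRF, was the most abundant. It measured 149, 118 and 130 TPM in the controls, and 103, 70.6 and 92.9 TPM in depleted cells, without overlap (log2 change -0.58, 95% interval -0.96 to -0.21, limma adjusted p = 0.178). SRF itself, picked with its values in view, stood at 13.6, 15.8 and 15.0 TPM in the controls, and 21.1, 18.0 and 21.3 TPM in the depleted cells (log2 change 0.42, 95% interval 0.15 to 0.69, limma adjusted p = 0.173). The groups were apart for both genes, with ELK3 lower and SRF higher in depleted cells.

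Calls came instead from other immediate early genes. Of 30 listed, 24 were tested, 2 rose, 1 fell and 21 did not pass, against 0.364% of all tested genes called higher and 1.83% called lower. These genes were listed with earlier results of these data known, so the comparison with all genes is a description only. The list had a median log2 change of 0.01. MYC, which drives growth and cell division, rose from 71.7, 76.3 and 72.1 TPM to 109, 118 and 110 TPM (log2 change 0.61, SE 0.08, limma adjusted p = 0.0110). BTG2, an antiproliferative gene that p53 and growth factors both induce, rose from 6.08, 5.19 and 7.23 TPM to 14.1, 13.8 and 11.4 TPM (log2 change 0.98, SE 0.15, limma adjusted p = 0.0215). MAFK, a small MAF protein that pairs with other basic leucine zipper factors, fell from 21.9, 25.9 and 22.0 TPM to 13.95, 14.3 and 13.9 TPM (log2 change -0.68, SE 0.10, limma adjusted p = 0.0204). The groups were apart for all 3 genes, and the direction held in every alternative. Unlike for DUSP7, the genes beside MYC, BTG2 and MAFK on their chromosomes were not examined, and the part of location was not tested. The calls depended on single libraries. MYC missed the threshold without control replicate 3 (limma adjusted p = 0.0675) or depleted replicate 3 (0.0631), and BTG2 without any 1 of the 6 libraries (0.0517 to 0.0977) and with no filter on low values (0.0612). MAFK missed it without control replicate 2 or 3 (0.0648 and 0.0815) or any 1 of the depleted libraries (0.0715 to 0.105).

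The remaining lists gave 0 calls by limma. Of 16 other ERK outputs and feedback genes, 12 were tested and had a median log2 change of -0.06, with 3 above 0 and 9 below. The most abundant, CCND1, the cyclin of the G1 phase, measured 192 ± 21.2 and 171 ± 11.6 TPM (limma adjusted p = 0.660). In this list 2 genes had an unadjusted p under 0.05, both with lower means in depleted cells. ETV1 measured 8.38, 15.5 and 7.93 TPM in the controls, and 3.44, 5.97 and 3.67 TPM in depleted cells, without overlap (log2 change -1.09, limma adjusted p = 0.162). The part of its location on the chromosome was not tested. DUSP3 overlapped between the groups (log2 change -0.39, limma adjusted p = 0.349). Of 11 partners of AP-1 from the ATF, BATF and MAF families, 8 were tested and had a median of -0.04, with 3 at an unadjusted p under 0.05. ATF4, the stress-response factor that was most abundant among them, measured 313, 430 and 316 TPM in the controls, and 451, 516 and 429 TPM in depleted cells, overlapping narrowly at control replicate 2 (log2 change 0.41, 95% interval 0.06 to 0.75, limma adjusted p = 0.329).

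Some members share their position with another gene, and the sources used here do not say whether counting used the strand. ETV4, at a mean of 16.6 TPM over all libraries, overlaps DHX8, at 24.0 TPM, and its values are uncertain for that reason. JUNB overlaps HOOK2 (mean 4.16 TPM), SPRY4 overlaps SPRY4-IT1 (at most 3.40 TPM) and IER3 overlaps IER3-AS1 (at most 0.771 TPM), each far below the member.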

How the data were processed

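RNA-seq values of 6 MCF10A libraries, 3 per group, were used as the TPM that the authors deposited in 1 table, with genes named by symbol. The submitters' processing notes name the build hg19. The sources used here give no aligner, annotation, strand setting or read depth. TPM keep no depth. Columns headed as control matched the control labels, and those headed as experiment were assigned to the PI5P4K-depleted group as the remaining group, by replicate number.

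Values were analysed as log2(TPM + 1), which understates the change of low genes, where the mean over all libraries reached 1 TPM. Differences were fitted by limma 3.58.1 under R 4.3.3 (empirical Bayes with a variance trend), with Benjamini-Hochberg adjustment over all 12096 tested genes and a threshold of 0.05. The procedure was tested on simulated data. Exact permutation tests were two-sided. Genes were called non-overlapping when every library of one group lay above every library of the other. The members, the gene lists and the settings were chosen with earlier results of these data known.

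Values in every library are given for members whose groups did not overlap, for the most abundant members and for those with the largest changes, and for others where they help a comparison. In other gene lists the called genes and the most abundant gene are named. SRF, ETV1, DUSP3 and some cell markers were named as well, with their values in view. The 16 alternatives changed the pseudocount, filter, scaling, variance model, replicate block or the libraries included. Promoters are from RefSeq on GRCh38.p14, which is not the authors' build. They were used by symbol, and DUSP7 was placed by RefSeq gene order.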

Additional observations from a re-analysis of the deposited data

How the results depend on the processing

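Of 525 values of the members' log2 changes under the 16 alternatives, 480 kept their direction and side of the threshold, 40 changed sign and 5 newly passed. The number of members called was 0 in each alternative except without control replicate 2 (1, FOS) and with the replicate block (4). The labels do not say whether equal replicate numbers pair the samples, and the values do not settle it. Deviations of same-numbered libraries correlated at 0.246, 0.269 and -0.015, and 4 of 6 libraries correlated best with their own number. As a hint only, the replicate block called DUSP6 (limma adjusted p = 0.0115), DUSP7 (0.00720), MCL1 (0.0360) and ZFP36 (0.0406), and 881 genes in all against 265. Leaving out 1 library gave 106 to 219 genes in all and 0 to 1 members. PIP4K2B, -1.27 to -1.04 across these, missed the threshold without control replicate 3 (-1.14, limma adjusted p = 0.0602).

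Sign changes by scaling or pseudocount were at log2 changes near 0: JUNB was 0.00127 with a pseudocount of 5, 0.0187 with median ratio scaling and 0.0361 with quantile normalization, and ETV5 was 0.0169 and 0.0294 with the latter 2 scalings. With quantile normalization IER5 was 0.00810, ATF3 0.0115 and SPRED1 0.0159. Leaving out 1 library gave log2 changes from -0.258 to 0.0527 for FOSL1, -0.211 to 0.126 for JUN, -0.178 to 0.196 for JUNB, -0.380 to 0.113 for ATF3, -0.0654 to 0.243 for IER2 and -0.0887 to 0.0879 for IER5. The range was -0.114 to 0.179 for ZFP36L1, -0.169 to 0.135 for KLF4, -0.384 to 0.199 for KLF6, -0.234 to 0.00409 for KLF10, -0.112 to 0.186 for DUSP1, -0.00643 to 1.21 for DUSP2 and -0.360 to 0.367 for DUSP10. It was -0.0546 to 0.0384 for SPRED1, -0.0296 to 0.163 for SPRED2, -0.106 to 0.318 for ETV4 and -0.132 to 0.117 for ETV5. The cause was not tested. Depth is unknown, so counting error cannot be given, and FOSB, EGR2, EGR3 and SPRY1 lie where TPM are least precise.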
